A study of Mus musculus with 7 samples.

Results

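The 10 genes described here encode the PPAR nuclear receptors (Ppara, Ppard, Pparg), their RXR partners (Rxra, Rxrb), the transcriptional regulator Prdm16 and the coregulators Ppargc1a, Ppargc1b, Med1 and Ncor1. They were taken from the deposited expression table by their exact gene symbols, and all 10 have a row among its 14795 genes. Rxrg, which encodes the remaining RXR, was not analysed here. RNA was sequenced from the duodenum of 7 C57BL/6 mice, 3 Ppara lox/lox controls and 4 Ppara I-KO mice. Food was withheld for 6 h and then given back for 6 h. Both groups carried loxP-flanked Ppara alleles. The I-KO mice also carried Cre recombinase under the villin promoter, which is active in the intestinal epithelium, so that muscle, immune and other non-epithelial cells of the tissue keep Ppara. The methods of the study describe the mice as males on high-fat diet and the controls as littermates, whereas the labels give no diet, and the age of the duodenum donors is not given in the sources used here.

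PPARα, PPARδ and PPARγ are receptors for fatty acids and their derivatives. Each pairs with an RXR and binds DNA at repeats of a short sequence called a half-site. In the absence of ligand they recruit corepressors such as NCoR1, which brings histone deacetylases to the gene. Ligand exchanges these for coactivators such as the PGC-1 proteins and MED1, the subunit through which Mediator contacts nuclear receptors. In the small intestine PPARα and PPARδ drive genes of fatty acid oxidation and lipid handling, PPARγ is best known as the regulator of fat cell formation, and PRDM16 is best known for the brown fat programme, in which it works with PGC-1 proteins and PPARγ.

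In the GENCODE annotation of the mouse genome GRCm38, also called mm10, Ppara lies at chr15:85734983-85802819 on the plus strand, Ppard at chr17:28232700-28301474 (plus) and Pparg at chr6:115360951-115490399 (plus). Rxra lies at chr2:27676440-27762957 (plus) and Rxrb at chr17:34031812-34038399 (plus). Prdm16 lies at chr4:154316125-154636873 (minus), Ppargc1a at chr5:51454250-51567726 (minus), Med1 at chr11:98152154-98193293 (minus) and Ncor1 at chr11:62316426-62458541 (minus). All 10 are protein-coding, and each value counts reads over all exons of the gene. Ncor1 shares 82 exonic bases with Pigl and 1 with Ttc19, both on the opposite strand. Prdm16 shares 109 exonic bases with B230104I21Rik on the opposite strand. The library kit was stranded, but the sources used here do not say whether strand was used in counting.

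Upstream sequence is shown for the PPAR genes, because they encode the receptors that bind repeats of AGGTCA with RXR, and because Pparg was the one of the 10 genes whose groups did not overlap. The 250 bases before each RefSeq transcription start (GRCm38.p6) were searched for AGGTCA on both strands. Of 14 such windows for 9 of the genes, 3 held the half-site, which is 21.4%, against 14.0% of the 32851 windows of all genes. They were the windows of the first and second Pparg starts and of the second Rxra start, and no window of Ppara or Ppard held it. Direct repeats of AGGTCA with a single base between them, the arrangement that PPAR and RXR pairs prefer, occurred in 0 of the 14 windows and in 0.0335% of all windows. A match of letters is a description and not a measured binding site. The stretches of 30 bases around both Pparg matches lie in annotated first exons and are shown with the half-site in capitals.
Pparg start 1, chr6:115361104-115361133, plus strand: agccgccgcctcAGGTCAgagtcgccccgg
Pparg start 2, chr6:115362328-115362357, plus strand: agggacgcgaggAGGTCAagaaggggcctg
The longest stretch of each window outside annotated exons is given next for the third Pparg start, for Ppard and for Ppara, none of which holds the half-site.
Pparg start 3, chr6:115421816-115422065, plus strand: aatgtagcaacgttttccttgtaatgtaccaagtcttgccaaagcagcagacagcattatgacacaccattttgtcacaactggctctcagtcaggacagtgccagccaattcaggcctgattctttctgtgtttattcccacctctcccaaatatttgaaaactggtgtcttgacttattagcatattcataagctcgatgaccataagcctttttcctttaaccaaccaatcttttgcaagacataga
Ppard, chr17:28232504-28232699, plus strand: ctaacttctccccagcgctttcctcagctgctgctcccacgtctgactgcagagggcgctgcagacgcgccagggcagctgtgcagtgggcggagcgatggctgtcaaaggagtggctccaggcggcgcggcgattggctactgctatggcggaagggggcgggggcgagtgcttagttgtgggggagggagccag
Ppara, chr15:85735714-85735775, plus strand: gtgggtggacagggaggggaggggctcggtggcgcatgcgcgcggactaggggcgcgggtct
The window of the third Pparg start contained 40.8% G and C, whereas the windows of the first Pparg start, Ppara and Ppard contained 82.4%, 76.4% and 69.6%, beside a median of 52.4% over all windows.

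The libraries held between 20745155 and 25865823 reads on the listed genes, and replicates of a group differed by more than sampling noise. Values are the authors' normalized counts in CPM (reads of a gene relative to an adjusted library size). The fewest reads on one of the 10 genes were the 302 of Pparg in lox/lox 3, where counting error alone is 5.75% of the value, and Ncor1 reached 9150. Markers of the intestinal epithelium summed to between 18916 and 21319 CPM in lox/lox and between 19929 and 23519 in I-KO libraries, and all 4 duodenal identity genes had reads in every library. Pancreatic acinar markers stood apart in 2 libraries, at 365 CPM in I-KO 1 and 83.8 in lox/lox 2, against between 24.6 and 39.1 in the other 5. Most of the sum in those 5 came from Clps (16.21 to 28.79 CPM) and Cela1 (6.36 to 8.10 CPM). Ctrb1, for example, was at 79.22 CPM in I-KO 1, 10.98 in lox/lox 2 and at most 0.71 in the other 5. Separate cultures or litters are not named in the labels, so p-values measure only the spread between these mice.

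Ppara, the gene targeted in the I-KO mice, was measured at 53.42, 49.29 and 63.18 CPM in lox/lox 1 to 3, and at 33.05, 40.58, 47.51 and 69.90 CPM in I-KO 1 to 4. In 3 I-KO libraries it was below every control, and the library labelled I-KO 4 held the most Ppara of all 7. The control mean was 55.3 ± 7.13 CPM (SD, n = 3), and the I-KO mean was 47.8 ± 15.9 CPM (SD, n = 4). By limma the log2 fold change was −0.25 (SE 0.22, 95% interval −0.75 to 0.25, adjusted p = 0.954), and the exact permutation p was 0.4. These sums cover every exon of the gene, and the sources used here do not name the exons that Cre removes, so that they do not test the deletion itself. Without I-KO 4 the log2 fold change was −0.45 (limma unadjusted p = 0.0152, adjusted p = 0.700). Less RNA per cell and fewer cells of a type cannot be told apart in bulk tissue, here and below. Ppara varied among the 7 libraries by up to 2.11-fold, and 96.5% of the genes tested had a smaller spread within groups.

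**Figure D1:**
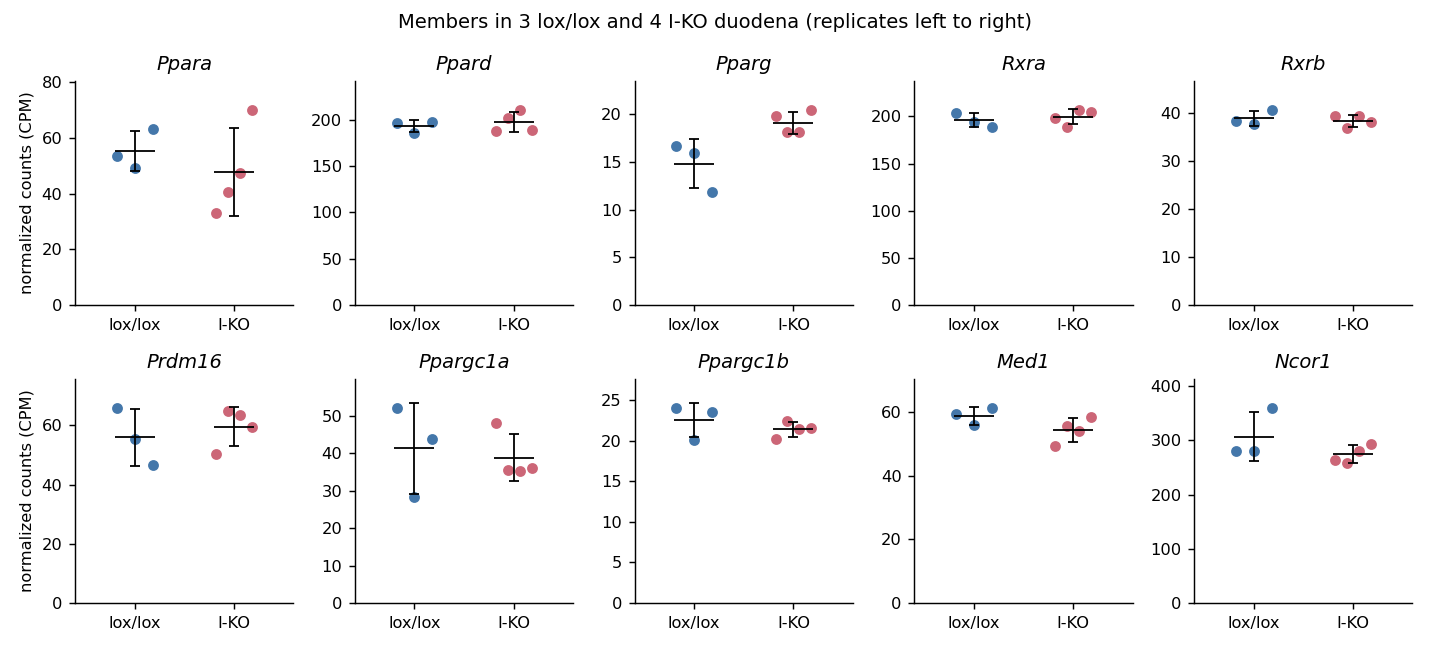
Normalized counts (CPM, vertical axes from 0) of each of the 10 genes in 3 lox/lox libraries (blue) and 4 I-KO libraries (red), with replicates 1 to 3 or 1 to 4 from left to right, and the group mean and SD in black. Pparg is the one gene whose groups do not overlap, and Ppara in I-KO 4, at 69.90 CPM, is above every control.

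Known targets of PPARα were mostly lower in I-KO mice, while Ppara itself overlapped between the genotypes. Of 24 listed targets, 22 passed the filter on low values and 21 of them were lower in I-KO mice, with a median log2 fold change of −0.51 against 0.0017 over all 13399 genes tested. The list was chosen with earlier results of these data known, so the counts of targets here and below are a description and no independent support. Only Me1, which encodes cytosolic malic enzyme, passed the adjusted threshold of 0.05, which 4 genes in all passed, 0.0299% of those tested. Me1 was measured at 39.25, 29.73 and 42.55 CPM in lox/lox mice and at 13.31, 14.65, 12.82 and 17.98 CPM in I-KO mice, so that the groups lay apart. Its log2 fold change was −1.28 (SE 0.15), with limma adjusted p = 0.0456. With 1 library left out, Me1 stayed called without lox/lox 2 or I-KO 4 (adjusted p = 0.0268 and 0.0223 by limma). Its limma adjusted p was 0.226 without lox/lox 1, 0.243 without lox/lox 3, 0.218 without I-KO 1, 0.145 without I-KO 2 and 0.132 without I-KO 3, with log2 fold changes from −1.43 to −1.18 over these fits. Column totals (0.0762), a pseudocount of 0.5 (0.0722) and leaving out both libraries with the most acinar RNA (0.0796) also ended the call. At an unadjusted p under 0.05, 17 targets were lower, where 4.74% of all genes tested passed in either direction.

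Cyp4a10, a fatty acid hydroxylase and a classical PPARα target, was measured at 1.78, 2.57 and 4.87 CPM in lox/lox mice. In I-KO mice it was at 0.29, 0.24, 0.21 and 0.58 CPM, with the groups apart, and the log2 fold change on the log2(CPM + 1) scale was −1.55 (limma adjusted p = 0.116). Pex11a, which controls peroxisome number, had a log2 fold change of −0.66 and ran from 27.07 to 32.10 CPM in lox/lox and from 16.67 to 19.14 CPM in I-KO mice. Cpt1a, the carnitine transferase that admits fatty acids to mitochondria, ran from 96.37 to 121.52 CPM and from 57.67 to 72.84 CPM, again without overlap. In all, 15 of the 22 targets had every I-KO library below every control, beside 3.28% of all genes tested. Cyp4a10 passed the filter only through its lox/lox values and so had to be lower. Among the other 21 targets, 20 were lower, 16 had an unadjusted p under 0.05 and 14 did not overlap, with a median log2 fold change of −0.45. Ehhadh, a peroxisomal oxidation enzyme, was the exception in direction, at a log2 fold change of 0.01, and Acadl, a mitochondrial dehydrogenase, had −0.13.

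The targets were then set beside the total of Ppara reads library by library. Relative to the lox/lox mean, the median of the 22 targets on the log2(CPM + 1) scale was −0.02, −0.11 and 0.11 in lox/lox 1 to 3. It was −0.41, −0.68, −0.54 and −0.54 in I-KO 1 to 4, and these 4 libraries lay below all 3 controls. These medians use the same values as the fold changes of the targets above and are no separate evidence. In the library labelled I-KO 4, with 69.90 CPM of Ppara, 20 of the 22 targets were below the lox/lox mean, and in I-KO 1, with 33.05 CPM, all 22 were. The same count was 15, 21 and 3 in lox/lox 1 to 3, so that it does not set I-KO libraries apart from lox/lox 2, whose targets lay closer to the mean. Among the 3 controls the target median followed the order of Ppara, and among the 4 I-KO libraries it did not. An order of so few libraries arises easily without any relation, so no difference between the genotypes is drawn from it. The target median of I-KO 4 lay within the range of the other I-KO libraries, and its Ppara reads lay above those of every control.

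**Figure D2:**
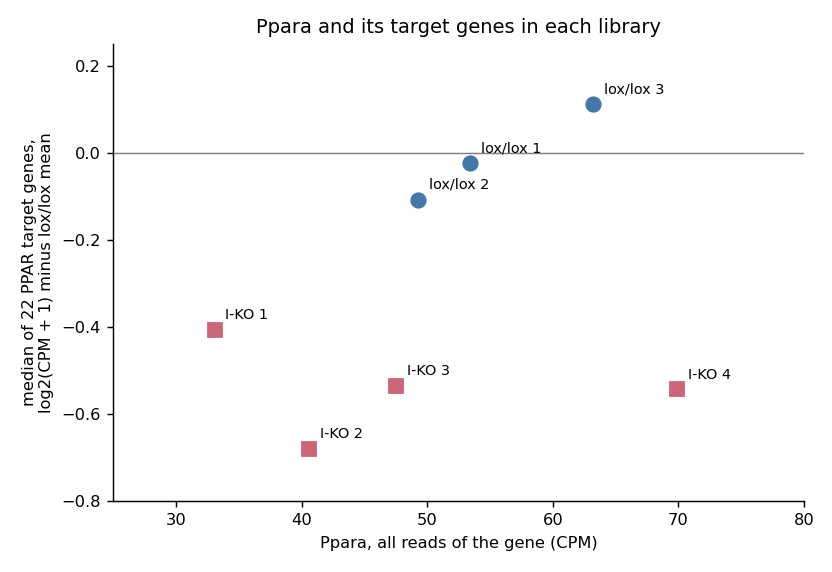
Ppara (horizontal axis, CPM over all exons) against the median of 22 PPAR target genes (vertical axis, log2(CPM + 1) minus the lox/lox mean) in each library, with lox/lox libraries as blue circles and I-KO libraries as red squares. The I-KO libraries lie between −0.68 and −0.41 at every level of Ppara, I-KO 4 included.

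Ppard, the other PPAR that drives fatty acid oxidation, was measured at 196.19, 185.44 and 196.92 CPM in lox/lox mice and at 187.80, 201.87, 210.07 and 189.24 CPM in I-KO mice. The groups overlapped, at 193 ± 6.43 (SD, n = 3) and 197 ± 10.6 CPM (SD, n = 4). The log2 fold change was 0.03 (SE 0.080), with limma adjusted p = 0.980. Its 95% interval, from −0.15 to 0.21, holds changes of between 0.902-fold and 1.16-fold. Ppard was among the steadiest genes in these mice, and 7.90% of genes had a smaller spread.

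Pparg was the one gene of the 10 whose groups did not overlap. It was measured at 16.64, 15.91 and 11.87 CPM in lox/lox 1 to 3, and at 19.73, 18.11, 18.06 and 20.38 CPM in I-KO 1 to 4. The I-KO mean of 19.1 ± 1.17 CPM (SD, n = 4) was 129% of the lox/lox mean of 14.8 ± 2.57 CPM (SD, n = 3). The log2 fold change was 0.36 (SE 0.12, 95% interval 0.09 to 0.63). Its exact permutation p of 0.0286 is the smallest that 35 regroupings of 7 libraries allow, and by limma the unadjusted p was 0.0155 and the adjusted p over all genes was 0.954, so that the difference did not pass the threshold. Of all genes tested, 2.91% had every I-KO library above every control and 3.28% had every one below. With 1 gene of 10 not overlapping, the count is too small to set the 10 apart from these shares. Without lox/lox 3, the lowest library, the log2 fold change was 0.21 and the unadjusted limma p was 0.0585.

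Because Pparg is abundant in fat, markers of adipocytes were read in the same libraries. Of 5 adipocyte markers 4 had a row, and their sum ran from 1.59 to 10.8 CPM in lox/lox and from 1.37 to 9.14 CPM in I-KO libraries. Neither adipocyte marker that passed the filter was higher in I-KO mice. Of 5 endothelial markers, 4 were higher in I-KO mice, with sums from 79.8 to 98.3 CPM in lox/lox and from 91.6 to 121 CPM in I-KO libraries, and 6 of 6 smooth muscle markers were higher, with sums from 1063 to 1320 CPM and from 1102 to 1550 CPM. Enteric neuron and glia markers were higher in 3 of 6, with sums from 15.4 to 17.5 CPM and from 14.9 to 18.7 CPM. Leukocyte markers were higher in 5 of 9, with sums from 337 to 500 CPM and from 392 to 528 CPM. Of the epithelial markers, whose sums are given above, 6 of 8 were higher. The sums of each of these lists overlapped between the groups, and the part of these cells in the Pparg difference was not tested.

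The RXR partners were the steadiest of the 10. Rxra, which encodes the main RXR of epithelia and liver, was measured at 203.94, 194.32 and 189.10 CPM in lox/lox mice and at 198.43, 188.59, 206.41 and 204.70 CPM in I-KO mice. Rxrb was measured at 38.31, 37.58 and 40.47 CPM and at 39.27, 36.73, 39.20 and 37.95 CPM. In both genes the groups overlapped, and the highest library exceeded the lowest by 1.09-fold in Rxra and 1.10-fold in Rxrb. The log2 fold change was 0.03 for Rxra (SE 0.077, 95% interval −0.15 to 0.20) and −0.02 for Rxrb (SE 0.075, 95% interval −0.19 to 0.15). Limma adjusted p was 0.982 and 0.989. A smaller spread than that of Rxrb was found in 2.49% of genes, and than that of Rxra in 4.56%.

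Prdm16 encodes a zinc finger and SET domain protein that acts as a coregulator of PPARs and PGC-1 proteins in fat. It was measured at 65.86, 55.51 and 46.44 CPM in lox/lox mice and at 50.24, 64.70, 63.56 and 59.57 CPM in I-KO mice, so that both the highest and the lowest value belonged to controls. The means were 55.9 ± 9.72 (SD, n = 3) and 59.5 ± 6.56 CPM (SD, n = 4), and the log2 fold change was 0.10 (SE 0.13, 95% interval −0.21 to 0.40, limma adjusted p = 0.971). Without lox/lox 3 it was −0.03. Brown adipocyte markers were near 0 in the same libraries, where the 2 of 4 that had a row summed to between 0.43 and 1.33 CPM. Prdm16 was thus at 46.44 CPM or more in every library, beside a sum of brown fat markers of at most 1.33 CPM.

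The PGC-1 genes encode coactivators of mitochondrial gene expression. Ppargc1a was measured at 52.13, 28.23 and 43.77 CPM in lox/lox mice and at 48.23, 35.55, 35.17 and 36.21 CPM in I-KO mice. The values overlapped, with lox/lox 2 the lowest of all 7 and lox/lox 1 the highest. The log2 fold change was −0.06 (SE 0.20, 95% interval −0.51 to 0.39, limma adjusted p = 0.987), and 94.6% of genes varied less. Its direction rested on single controls, with log2 fold changes of 0.12 without lox/lox 1 and −0.31 without lox/lox 2. Without lox/lox 2 and I-KO 1, the libraries with the most acinar RNA, its log2 fold change was −0.41 (limma unadjusted p = 0.00842, adjusted p = 0.9997).

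Ppargc1b was measured at 24.04, 20.12 and 23.49 CPM in lox/lox mice and at 20.16, 22.39, 21.50 and 21.54 CPM in I-KO mice. All 4 I-KO values lay inside the range of the controls. The log2 fold change was −0.07 (SE 0.089, 95% interval −0.27 to 0.13, limma adjusted p = 0.963).

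Med1 and Ncor1 stand for the activating and the repressing partners of a nuclear receptor. Med1 was measured at 59.44, 55.72 and 61.21 CPM in lox/lox mice and at 49.38, 55.55, 54.03 and 58.49 CPM in I-KO mice, and 3 of the 4 I-KO values were below every control. The means were 58.8 ± 2.80 (SD, n = 3) and 54.4 ± 3.80 CPM (SD, n = 4), and the log2 fold change was −0.11 (SE 0.086, 95% interval −0.31 to 0.08, limma adjusted p = 0.954, exact permutation p = 0.143). Ncor1 was measured at 281.05, 280.28 and 359.96 CPM in lox/lox mice and at 264.72, 258.36, 281.15 and 294.24 CPM in I-KO mice. One control, lox/lox 3, stood above all other libraries, and the rest of the values overlapped. The log2 fold change of Ncor1 was −0.15 (SE 0.11, 95% interval −0.40 to 0.09, limma adjusted p = 0.954), and without lox/lox 3 it was −0.03.

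**Figure D3:**
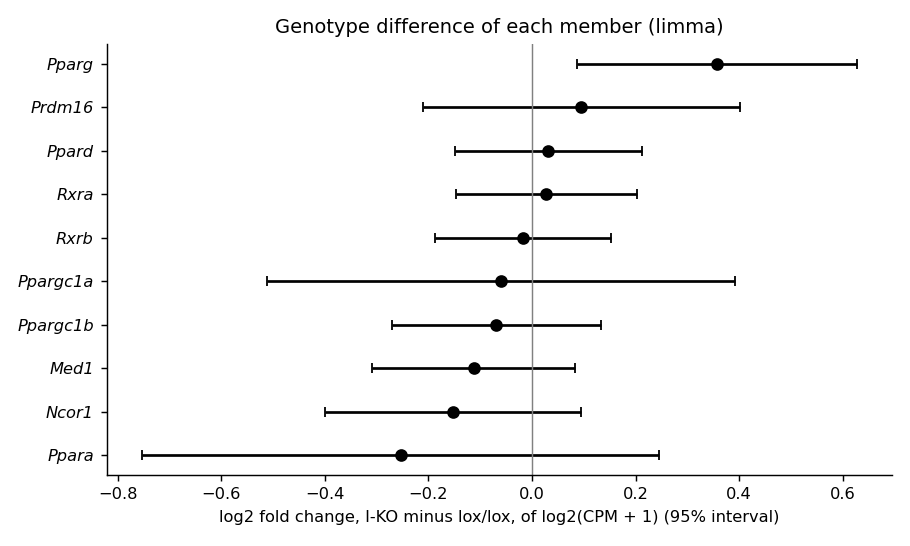
Log2 fold change of each gene between I-KO and lox/lox mice on the log2(CPM + 1) scale (points, horizontal axis) with its 95% interval from limma (bars), in order of size. The interval of Pparg, from 0.09 to 0.63, lies above 0 before adjustment over genes, and that of Ppara, from −0.75 to 0.25, is the widest.

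Of the 10 genes, 4 were higher and 6 lower in I-KO mice, and 0 were called by limma, where 0.0299% of all genes were called. In 6 genes the change was smaller than 0.1 on the log2 scale, and in 7 the 95% interval held no change of 0.5 or more in either direction. At an unadjusted p under 0.05 there was 1 gene of the 10, Pparg, where 4.74% of all genes passed, a count too small to set the 10 apart from that share. The intervals of Ppara, Ppargc1a and Pparg reached beyond 0.5, so that these data still allow changes of that size in these genes.

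To set the genes beside each other, each value was divided by the length of the gene's merged exons. On this scale of CPM per kb, the means over the 7 libraries were 36.2 for Rxra, 26.0 for Ppard, 22.5 for Ncor1, 13.3 for Ppara and 9.69 for Rxrb. The lower group held Med1 at 6.43, Prdm16 at 6.22, Ppargc1a at 6.05, Pparg at 5.84 and Ppargc1b at 5.49 CPM per kb. Even the lowest of these, Ppargc1b, was above 57.9% of the 14679 genes with a length, and Rxra was above 90.3%. Ppard thus exceeded the other PPARs in level, and Rxra exceeded Rxrb.

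Neighbours in this order were compared within each library by an exact two-sided sign-flip test, adjusted over the 9 pairs. Rxra exceeded Ppard in 7 of 7 libraries by 1.39-fold, Ncor1 exceeded Ppara in 7 of 7 by 1.73-fold, and Rxrb exceeded Med1 in 7 of 7 by 1.51-fold (exact permutation adjusted p = 0.0469 for each). Ppard exceeded Ncor1 in 6 of 7 libraries (exact permutation adjusted p = 0.0703), and Ppara exceeded Rxrb in 6 of 7 (exact permutation adjusted p = 0.0844). The exception for Ppara was I-KO 1, at 8.62 CPM per kb beside 9.88 for Rxrb, and Ppara was the higher in every lox/lox library. The level of Ppara here pools controls with mice in which this gene was targeted. Within the lower group from Med1 to Ppargc1b, none of the 4 neighbour pairs differed beyond the spread (exact permutation adjusted p of at least 0.809). With 6 libraries, after any one was left out, the test cannot pass for 3 pairs.

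The order depended on the length taken for each gene. Merged exons of Ppard span 7514 bases and its longest transcript 3726. Divided by the longest transcript, Ppard came first at 52.4 CPM per kb, before Rxra at 40.4 and Ncor1 at 31.9. The order of Ppard and Rxra thus reversed, with Ppard above Rxra in 7 of 7 libraries by 1.30-fold (exact permutation adjusted p = 0.0469). Ncor1 still exceeded Ppara in 7 of 7 libraries, by 2.18-fold with the same adjusted p, and Pparg moved from the ninth to the sixth place at 8.11 CPM per kb. Ppara, at 14.9, and Rxrb, at 14.7, then lay side by side.

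**Figure D4:**
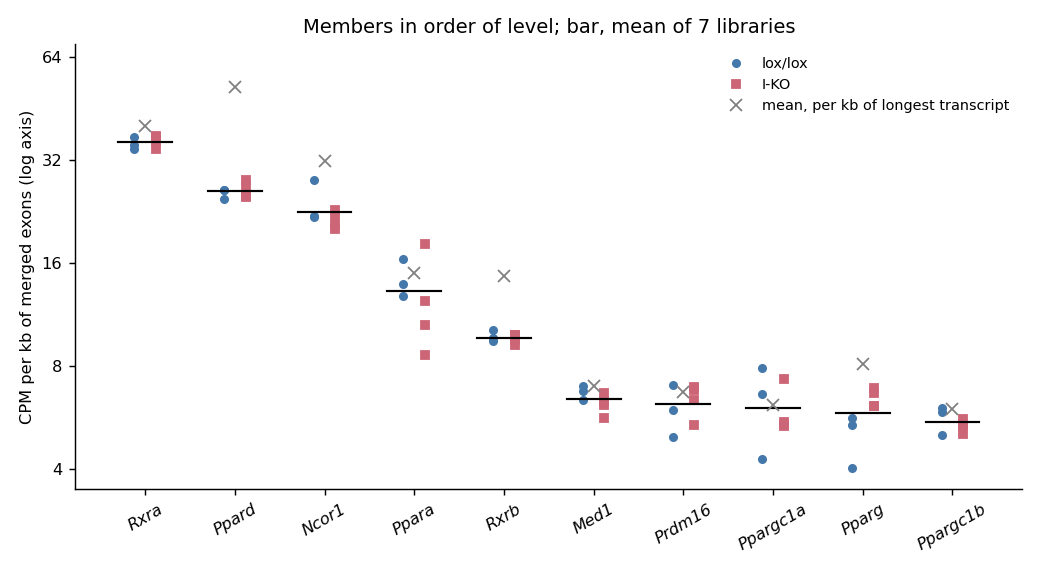
Level of each gene as CPM per kb of merged exons (vertical log axis) in 3 lox/lox (blue circles) and 4 I-KO libraries (red squares), with the mean of 7 libraries as a bar and the mean per kb of the longest transcript as a grey cross. Rxra, Ppard and Ncor1 lie above 20 CPM per kb, Ppara and Rxrb follow, and the other 5 genes lie together near 6 CPM per kb.

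The balance among the PPARs was followed as the share of each in their summed CPM per kb. The share of Pparg was 12.3%, 12.6% and 8.61% in lox/lox 1 to 3 and 16.6%, 14.1%, 13.2% and 13.7% in I-KO 1 to 4. The groups did not overlap, at 11.2 ± 2.22% (SD, n = 3) and 14.4 ± 1.51% (SD, n = 4), with an exact permutation p of 0.0286, which became 0.171 after adjustment over 6 balances. The share of Ppara was 31.9 ± 2.93% and 27.1 ± 6.43% (exact permutation p = 0.314, adjusted p = 0.943), and the groups overlapped, since I-KO 4 held 36.2%. These shares use the same values as the comparisons of Ppara and Pparg above and are no separate evidence.

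The other balances differed little between the genotypes. Rxrb made up 21.4 ± 1.16% of the RXR transcripts in lox/lox and 20.9 ± 0.473% in I-KO mice. Ppargc1b made up 48.1 ± 5.50% and 47.9 ± 4.75% of the PGC-1 transcripts. The log2 ratio of Med1 to Ncor1 was −1.83 ± 0.16 and −1.79 ± 0.09, and that of all PPAR to all RXR transcripts was −0.02 ± 0.07 and −0.04 ± 0.12 (SD, n = 3 and 4). Adjusted over the 6 balances, each of these 4 had an exact permutation p of 0.971.

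Other genes of the same pathway were counted in lists by role. None of the following lists held a gene called by limma. Of all genes tested, 49.4% were lower in I-KO mice, and 3.28% had every I-KO library below every control. Of 14 nuclear receptor coactivators, 10 were lower in I-KO mice and the median log2 fold change was −0.04. Pprc1, a relative of the PGC-1 genes, ran from 30.10 to 31.19 CPM in lox/lox and from 22.14 to 28.02 CPM in I-KO mice, apart from each other, with a log2 fold change of −0.22 (limma adjusted p = 0.954). Helz2, a PPARγ coactivator, had −0.18, and Cited2 and Ncoa3 lay at the other end, each with 0.03. Among 8 corepressor genes 4 were higher and 4 lower, with a median of 0.01, and Lcor, a ligand-dependent corepressor, had the lowest value at −0.26. Under column totals the median of the corepressors was −0.02, a shift close to the −0.03 of all genes under that scaling.

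Of 32 Mediator subunits other than Med1, 21 were lower, beside 49.4% of all genes tested, with a median of −0.03. They ran from Med21 at −0.19 and Med30 at −0.16 to Cdk19 at 0.15 and Med16 at 0.25. Of the 14 other PRDM genes, 7 were tested and 6 were lower, with a median of −0.04. Prdm15 and Prdm4 were below every control in all 4 I-KO libraries, at log2 fold changes of −0.17 and −0.16 (limma adjusted p = 0.954 for both). These are 2 of the 7 tested, beside 3.28% of all genes. Prdm1, a regulator of epithelial and B cell maturation, had −0.0048, and Mecom, the closest relative of Prdm16, had 0.04. Of 5 tested PRDM16 partners 4 were lower, with a median of −0.06, from Ctbp2, a corepressor, at −0.15 to Zfp516 at 0.13. Of 11 tested PGC-1 partners 7 were lower, with a median of −0.0053. They ran from the deacetylase Sirt1 at −0.12 and the mitochondrial transcription factor Tfb2m at −0.08 to the nuclear receptor Esrra at 0.08 and the zinc finger protein Yy1 at 0.09.

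Genes that supply or carry PPAR ligands went in both directions. Of 15 tested, 8 were higher and 7 lower, with a median of 0.009. Fabp1, a fatty acid carrier that is also on the list of PPAR targets, ran from 3380 to 4228 CPM in lox/lox and from 2109 to 3215 CPM in I-KO mice, apart from each other, with a log2 fold change of −0.57 (limma unadjusted p = 0.00621, adjusted p = 0.822). Fabp2, its intestinal relative, had −0.26 with overlapping groups. Ptgs1, a cyclooxygenase, and Pnpla2, the lipase that releases fatty acids from lipid droplets, did not overlap between the groups and had 0.23 and 0.21 (limma adjusted p = 0.954 for both). Ptgis, the prostacyclin synthase, named for the same lack of overlap after its values were seen, ran from 1.73 to 1.93 CPM and from 1.96 to 2.07 CPM, with 0.10. In all, 3 of the 15 genes had every I-KO library above every control and 1 had every one below, beside 2.91% and 3.28% of all genes.

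**Figure D5:**
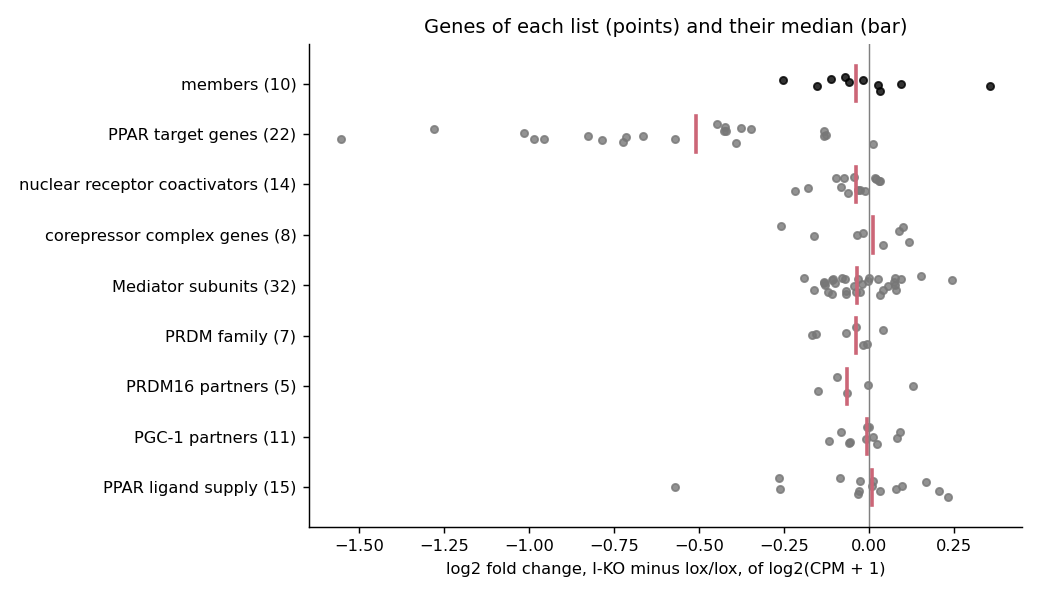
Log2 fold change between I-KO and lox/lox mice on the log2(CPM + 1) scale (horizontal axis) of the 10 genes and of each list (points, with the number of genes tested), and the median of each (red bar). The median of the PPAR target genes is −0.51, and the medians of the 10 genes and of the other 7 lists lie between −0.06 and 0.01.

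Likeness of expression was described by the Pearson correlation of log2(CPM + 1) over the 7 libraries, among 9084 genes with a mean of at least 10 CPM. All these values share their libraries and scaling, and with 7 points and so many genes high values arise easily. The genes closest to Ppara were Hiatl1 (0.98), Dmxl1 (0.98), Dr1 (0.98), Ccdc111 (0.98) and Erap1 (0.98), and 146 genes reached 0.9. Dmxl1, for example, was at 34.31, 30.41 and 38.82 CPM in lox/lox and at 22.22, 27.30, 30.40 and 38.28 CPM in I-KO mice, which repeats the order of the I-KO libraries seen in Ppara. The genes closest to Pparg were Foxq1 (0.96), Dnttip1 (0.96), Fth1 (0.95), Rtkn (0.95) and Cml5 (0.95), and 17 genes reached 0.9.

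Foxq1, a forkhead transcription factor, was at 17.48, 16.47 and 9.35 CPM in lox/lox and at 22.37, 19.80, 18.70 and 19.64 CPM in I-KO mice, with lox/lox 3 lowest in it as in Pparg. The genes closest to Prdm16 were Smpdl3a (0.97), Ncoa4 (0.96), Tmem79 (0.96), Nampt (0.95) and Itpr3 (0.95). Those close to Ppargc1a included Cops7b (0.95), Golgb1 (0.94), Atg16l1 (0.92) and Dip2b (0.90). Among the 10 genes themselves, correlations ran from −0.80 between Pparg and Ncor1 to 0.87 between Ppara and Med1 over the 7 libraries. Both values are the extremes of all pairs. The library lox/lox 3 had the lowest Pparg (11.87 CPM) and the highest Ncor1 (359.96 CPM). I-KO 1 had the lowest Ppara (33.05 CPM) and the lowest Med1 (49.38 CPM).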

How the data were processed

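RNA of 7 duodena (3 Ppara lox/lox, 4 Ppara I-KO) was read as 100 base single reads from stranded mRNA libraries, and groups and replicate numbers came from the labels. The authors deposited 1 table of signal values, counts scaled to an adjusted library size (CPM) with 2 decimals, for 14795 genes. The submitters' processing notes name FastQC 0.11.2, TopHat2 2.0.13, Picard 1.80, HTSeq 0.6.1, edgeR and mm10. A last line without a gene name was dropped. Low values lie on multiples of the value of 1 read (0.0393 to 0.0530 CPM), which gave read numbers for depth. Only between 78.9% and 100% of low values came within 0.1 of a step, so tests on counts were not run.

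Genes above 1 CPM in 3 or more libraries were kept (13399), and limma 3.58.1 (R 4.3.3) was applied to log2(CPM + 1) with a single genotype term. Two-sided p-values were adjusted by the Benjamini-Hochberg method at a threshold of 0.05. The exact permutation tests were two-sided. Lengths and coordinates came from GENCODE M21 and upstream sequences from RefSeq (GRCm38.p6). The fit and the exact tests were tested on simulated data. Named genes are the 10, the called genes of each list and otherwise its 2 highest and 2 lowest (1 and 1 for lists under 10 genes), and the 5 genes most like Ppara, Pparg, Prdm16 and Ppargc1a. Pex11a and Cpt1a were added as examples after their values were seen, and some genes that the rule names are not reported here. The members and the lists were chosen with earlier results of these data known. Alternatives were column totals, median-of-ratios size factors, a pseudocount of 0.5, no filter, an intensity trend, sample quality weights, the replicate number as a block, transcript length and each library left out. Other steps used numpy 2.4.6 and pandas 2.3.3 under Python 3.11.15, and matplotlib 3.10.9 for the plots.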

Additional observations from a re-analysis of the deposited data

Results flagged for a closer look

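Among 33 quantities searched in the group of 4 I-KO mice, 3 had a library far from the other 3 by Dixon's ratio of gap to range at its 95% limit, where chance gives about 1.6. Ppargc1a had a ratio of 0.920, with I-KO 1 at 48.23 CPM and the others between 35.17 and 36.21. The share of Ppargc1b among the PGC-1 transcripts had a ratio of 0.859, with I-KO 1 at 40.8% and the others between 49.6% and 51.0%, and it uses the same Ppargc1a values. The summed pancreatic acinar markers had a ratio of 0.958, with I-KO 1 at 365 CPM and the others between 24.6 and 39.1. All 3 concern I-KO 1, and the part of acinar RNA in the Ppargc1a value was not tested.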

How the results depend on the processing

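Between 3 and 5 genes were called when any single library was left out (4 in all 7), and 12 with sample quality weights, the 4 included. None of the 10 genes was called in any of the 15 alternatives (smallest adjusted p 0.628), and 333 alternative values kept their direction and their side of the threshold, or moved by less than the spread. Pparg stayed higher, with log2 fold changes of 0.21 to 0.44 with 1 library left out, and Ppara lower, from −0.45 to −0.10. Directions that turned were those of differences that were small in all 7 libraries, though not every value stayed small after turning. Under column totals Ppard was at −0.0059 and Rxra at −0.010, and with quality weights Ppargc1a was at 0.078 and Ppargc1b at 0.010. With 1 library left out, log2 fold changes ran from −0.040 to 0.012 for Rxrb, −0.029 to 0.22 for Prdm16 and −0.31 to 0.12 for Ppargc1a. The differences in share ran from −0.988 to 0.117 percentage points for Rxrb and −2.62 to 2.79 for Ppargc1b, and the log2 ratio differences from −0.052 to 0.11 for Med1 to Ncor1 and −0.063 to 0.035 for PPAR to RXR. The last was 0.0023 by transcript length and 0.0086 without lox/lox 2 and I-KO 1. Without both of these libraries the Ppargc1b share differed by 5.15 points, against −0.19 in all 7. Of the 3 neighbour pairs that passed, 0 passed with 6 libraries, where the test cannot pass for 3 pairs. The cause of the other changes was not tested. Same-numbered replicates correlated at −0.01, 0.18 and −0.01, within the range of the other pairs (−0.35 to 0.28). These correlations of deviations from group means, over few mice, cannot show whether the numbers pair the mice. With the replicate number as a block 3 genes were called, Me1 not among them (limma adjusted p = 0.184), and Ppara was at −0.45 and Pparg at 0.33. Only I-KO mice have a replicate 4, so in this fit I-KO 4 adds nothing to the genotype difference. Its log2 fold changes are those found without I-KO 4 and are no separate check. The planned edgeR and DESeq2 tests were not run, for want of whole counts. Counting error, at most 5.75%, was as large as the spread between I-KO mice in Rxrb (3.68% at its lowest read number, SD 3.14% of the I-KO mean) and Ppargc1b (4.96% and 4.31%). Among lox/lox mice the SD was larger than this error, at 3.87% of the mean for Rxrb and 9.41% for Ppargc1b. The part of depth in the I-KO spread of both genes was not tested.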
